A study of Arabidopsis thaliana with 12 samples.

Results

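The comparison described here set cbfs-1 seedlings against wild type Col seedlings of Arabidopsis thaliana before any cold, at 0 h. It used 4 of the 12 libraries of the study, 2 from cbfs-1 and 2 from wild type. A gene entered the comparison when its normalized read count was at least 10 in at least 2 of these 4 libraries, which 20126 of the 24616 genes in the deposited table did. Both groups were 14-day-old seedlings grown at 22 °C on MS medium in long days, with no treatment at 0 h, and they differed in genotype only as far as the labels say. The remaining 8 libraries held the same genotypes after 3 h and 24 h at 4 °C, 2 per group. The sources used here do not state which lesion cbfs-1 carries or whether replicates came from separate cultures. A p-value therefore sets a difference only against the scatter between libraries, which may be technical. For the calls this scatter was pooled over all 12 libraries and included any shift between replicate numbers.

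CBF1, CBF2 and CBF3, also called DREB1B, DREB1C and DREB1A, are AP2-type transcription factors encoded next to each other on chromosome 4. They are nearly silent in warm plants and are transcribed within hours of cold. Their proteins bind the C-repeat or DRE element, whose core is CCGAC, in front of cold-regulated genes such as COR15A, RD29A, KIN1 and KIN2, many of which encode small hydrophilic or dehydrin-like proteins linked to freezing tolerance. The comparison before cold asks what differs between the lines while this pathway is at rest.

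Levels below are read counts per gene divided by the authors' size factor for each library. Differences are cbfs-1 minus wild type in log2(value + 1), so those of low genes are understated, with a standard error (SE) or a 95% interval from limma. Genes are named as called where the Benjamini-Hochberg adjusted p over the 20666 genes tested in all 12 libraries was below 0.05. The recovered reads were 17666511 and 19074773 in the cbfs-1 libraries, against 16858218 and 16868905 in the wild type libraries. The floor used here, 3 reads, equals a normalized value of 3.10 and 2.84 in cbfs-1, and of 3.28 and 3.25 in wild type. In these 4 libraries 11.3% to 13.8% of the reads came from the 20 genes with most reads. Replicates differed by more than sampling noise, with a chi-square per degree of freedom of 17.6 in cbfs-1 and 21.0 in wild type.

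Before cold the transcriptomes of the lines were close. Of the 20126 genes 8 were called, 3 higher and 5 lower in cbfs-1. The 3 higher genes were CBF3, AT3G41979 and SADHU5-1, and the 5 lower genes were MRD1, AT1G67626, KIN1, ARP9 and KIN2. Of these MRD1 and AT1G67626 entered the comparison only through their wild type libraries. The share called was 0.0397% in either direction, 0.0149% higher and 0.0248% lower. An unadjusted p below 0.05 was reached by 641 genes (3.18%). Over the same genes the share called was 0.0248% at 3 h and 0.82% at 24 h, where 55 genes (0.273%) were higher and 110 (0.547%) lower in cbfs-1.

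The genotype difference is set here beside the difference between replicates, which was partly shared by both genotypes and so is not a measure of random scatter. The median difference over the 20126 genes was -0.0037, and the 5th and 95th percentiles were -0.28 and 0.35. The median SE was 0.159, and for 17698 genes (87.9%) the 95% interval of the difference stayed within 2-fold either way. The log2 values of cbfs-1 and wild type libraries of the same replicate number correlated across genes at Pearson's r of 0.991 for both numbers, above the 0.986 between the cbfs-1 replicates and the 0.984 between the wild type replicates (genes are not independent replicates). In both replicate numbers 45 genes (0.224%) were at least 2-fold apart between cbfs-1 and wild type in the same direction, whereas 214 genes (1.06%) were at least 2-fold apart between replicates 1 and 2 in the same direction in both genotypes.

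**Figure D1:**
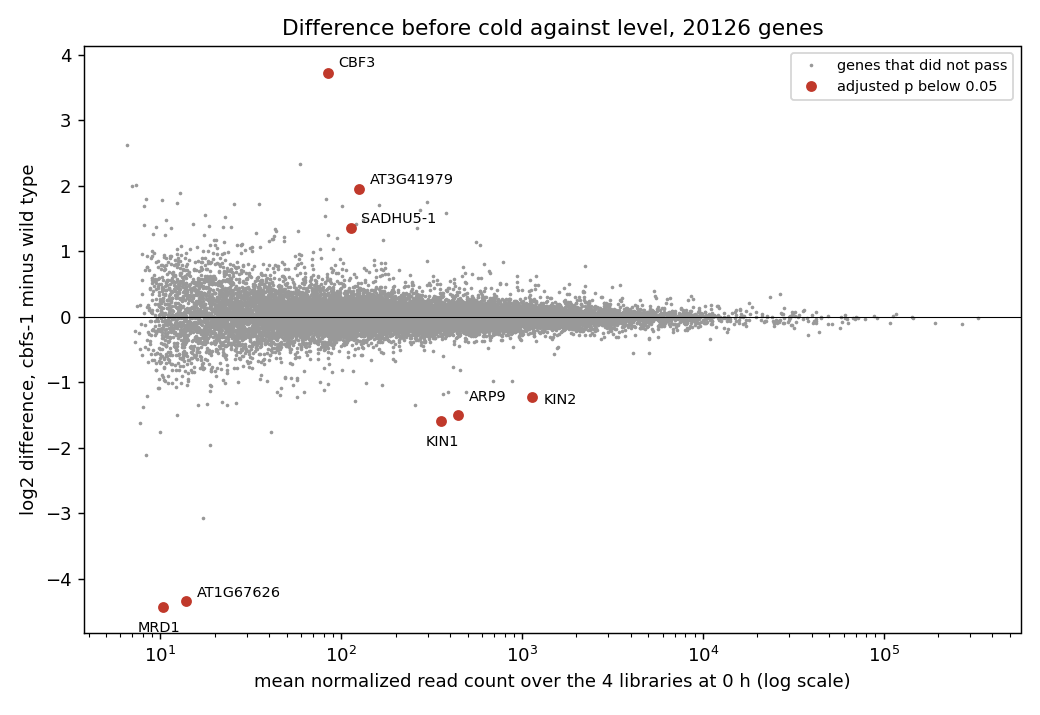
Difference between cbfs-1 and wild type before cold against level. The x axis gives the mean normalized read count over the 4 libraries at 0 h on a log scale, the y axis the log2 difference, cbfs-1 minus wild type, and each point is 1 of 20126 genes. The 8 labelled red points are the called genes, with CBF3 at 3.72 at the top and MRD1 at -4.42 at the bottom, and most grey points lie close to 0.

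The count of 8 rests on a spread pooled over all 12 libraries, and 2 libraries against 2 cannot give an exact two-sided permutation p below 0.333. With only the 4 libraries at 0 h, or without the 24 h libraries, limma called no gene (0 higher, 0 lower), while 449 and 588 genes had an unadjusted p below 0.05. Leaving out cbfs-1 replicate 1, cbfs-1 replicate 2 or wild type replicate 2 at 0 h also left 0 genes, with 535 to 638 at an unadjusted p below 0.05, and leaving out wild type replicate 1 left 1 gene, CBF3, while each of the 8 kept its direction. Same-numbered libraries deviated together at 0 h and 3 h, so the replicate number was also fitted as a block. With the block 13 genes (0.0646%) were called, 5 higher and 8 lower in cbfs-1. With a separate block term for the 24 h libraries 35 genes (0.174%) were called, 20 higher (0.0994%) and 15 lower (0.0745%), and both sets hold all 8.

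CBF3 was the gene with the largest rise. Its normalized read count was 175 and 138 in the 2 cbfs-1 libraries, against 15.3 and 7.6 in the 2 wild type libraries. Both cbfs-1 libraries lay far above both wild type libraries. The difference was 3.72 (SE 0.36), a 13.2-fold higher level in cbfs-1 (limma adjusted p = 0.00785).

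CBF2 had 63.1 and 12.3 normalized reads in cbfs-1, against 24.0 and 2.17 in wild type. The groups overlapped, the difference of 1.71 had a 95% interval of -0.41 to 3.83, and CBF2 was not called (limma adjusted p = 1.00). CBF1 stayed at 1.03 and 1.89 in cbfs-1 and at 2.18 and 1.09 in wild type, all under the floor of 3 reads, so no fold is given and it is not among the genes of the comparison. CBF4 and DDF2, other members of the family, were listed at 0 in all 4 libraries. The family list of 6 genes thus had 2 measured members before cold, 1 of them called. CBF1, CBF2 and CBF3 are similar tandem copies, and the sources used here state neither how shared reads were counted nor the strandedness. Their separate counts are therefore uncertain. CBF3 also overlaps the annotated locus AT4G07385.

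CBF3 was the only one of the 8 called genes whose sign differed at another time. At 3 h it had 1158 and 1095 normalized reads in cbfs-1, against 6133 and 7126 in wild type. At 24 h it had 893 and 799 in cbfs-1, against 404 and 180 in wild type. The genotype difference was therefore 3.72 before cold, -2.55 at 3 h and 1.64 at 24 h, and neither of the later ones was called (limma adjusted p = 0.0906 and 0.0885). Transcripts of all 3 CBF genes were counted in cbfs-1 at 3 h, with means of 2008 for CBF1, 7974 for CBF2 and 1127 for CBF3, against 1576, 5931 and 6629 in wild type. A read count does not show whether a protein is made.

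Among the neighbours of CBF3, chosen after their values were seen, ABCB28, an ABC transporter gene on the far side of CBF2, had 1472 and 1428 normalized reads in cbfs-1, against 897 and 981 in wild type. Its groups did not overlap, and its difference of 0.63 (SE 0.08) missed the threshold (limma adjusted p = 0.0581) and passed it with the replicate block (limma adjusted p = 0.0182). RS40, a splicing factor gene on the other side of the cluster, differed by -0.12. The next gene there, AT4G25510, had 8.28 and 4.73 in cbfs-1, against 12.01 and 14.1 in wild type. Its difference of -0.94 was not called (limma adjusted p = 1.00), and it entered the comparison only through its wild type libraries.

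KIN1 and KIN2, adjacent genes on chromosome 5 for small cold-induced hydrophilic proteins, were the CBF targets that fell before cold. KIN1 had 192 and 159 normalized reads in cbfs-1, against 603 and 462 in wild type. KIN2 had 717 and 651 in cbfs-1, against 1502 and 1688 in wild type. Every cbfs-1 value lay below both wild type values of its gene. KIN1 fell by 1.59 (SE 0.16), which makes it 3.01-fold higher in wild type, and KIN2 fell by 1.22 (SE 0.11), which makes it 2.33-fold higher in wild type (limma adjusted p = 0.00785 for each). They are paralogs, and reads that fit both may have been split or dropped.

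The list of CBF targets held 16 genes, all measured, and it was drawn up with earlier results of these data known. KIN1 and KIN2 fell, none rose and 14 did not pass. Both cbfs-1 libraries lay below both wild type libraries for 9 of the 16, against 13.5% of all genes of the comparison, and above them for 0 of the 16, against 13.7%. The median difference was -0.27, beside -0.0037 for all genes, and 12 of the 16 differences were below 0. With a separate block term at 24 h 5 of the 16 were called lower, against 0.0745% of all genes of the comparison, the additional ones being LTI30, COR15B and RD29A.

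Among the 14 that did not pass, COR15A, which encodes a small chloroplast-targeted protein, had 222 and 83.3 normalized reads in cbfs-1, against 443 and 270 in wild type. Its groups did not overlap, and the difference was -1.34 with a 95% interval of -2.19 to -0.49. COR15B, its neighbour and paralog, had 45.5 and 23.7 in cbfs-1, against 97.2 and 48.8 in wild type. The dehydrin gene LTI30 had 322 and 285 in cbfs-1, against 574 and 784 in wild type. For COR15B and LTI30 too, the cbfs-1 values stood below both wild type values, with differences of -1.05 (interval -1.87 to -0.22) and -1.15 (interval -1.76 to -0.54). RD29A, a classical reporter of cold and drought signalling, had 682 and 514 in cbfs-1, against 1146 and 1184 in wild type, a difference of -0.98 with an interval of -1.67 to -0.28.

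Of the remaining targets RD29B, a paralog of RD29A, had 74.5 and 39.8 normalized reads in cbfs-1, against 190 and 51.0 in wild type, and its groups overlapped with a difference of -0.85 (interval -2.78 to 1.09). COR413PM1, for a cold-regulated plasma membrane protein, had 2728 and 2111 in cbfs-1, against 3130 and 2952 in wild type, without overlap and with a difference of -0.34 (interval -0.82 to 0.14). The dehydrin genes COR47, ERD10 and ERD14 were already abundant before cold, with 4671 and 4184 normalized reads for COR47 in cbfs-1, against 4858 and 5068 in wild type. Their differences were -0.17, -0.21 and -0.03. GOLS3, a galactinol synthase gene that responds to cold, had 97.2 and 60.6 in cbfs-1, against 80.8 and 57.5 in wild type. RAP2.1, which encodes an AP2-type repressor downstream of the CBF proteins, had 68.3 and 73.8 in cbfs-1, against 54.6 and 70.5 in wild type. For GOLS3 and RAP2.1 the groups overlapped, with differences of 0.17 and 0.19. COR413IM1 had 449 and 214 in cbfs-1, against 428 and 175 in wild type. COR413IM2 had 658 and 435 in cbfs-1, against 584 and 400 in wild type. ERD7 had 635 and 558 in cbfs-1, against 639 and 610 in wild type. The groups of COR413IM1, COR413IM2 and ERD7 overlapped too, with differences of 0.18, 0.15 and -0.07. The 95% interval stayed within 2-fold either way for 7 of the 16 targets, and that of KIN1, from -1.94 to -1.24, lay wholly beyond 2-fold.

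The promoters of 4 of these targets are printed to show which carry the CCGAC core in the window searched, since the KIN genes were called and LTI30 and RD29A were not. Each runs 5′ to 3′ from 250 bases before to 50 bases after the annotated gene start on the plus strand of RefSeq assembly TAIR10.1, chromosome 5 for KIN1, KIN2 and RD29A and chromosome 3 for LTI30. Capitals mark CCGAC, or GTCGG where it lies on the other strand.
KIN1: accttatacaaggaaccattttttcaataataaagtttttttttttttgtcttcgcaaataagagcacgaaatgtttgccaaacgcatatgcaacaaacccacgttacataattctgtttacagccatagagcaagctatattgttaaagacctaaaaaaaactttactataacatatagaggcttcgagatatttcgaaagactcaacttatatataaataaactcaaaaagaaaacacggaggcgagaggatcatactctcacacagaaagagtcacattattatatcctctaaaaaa
KIN2: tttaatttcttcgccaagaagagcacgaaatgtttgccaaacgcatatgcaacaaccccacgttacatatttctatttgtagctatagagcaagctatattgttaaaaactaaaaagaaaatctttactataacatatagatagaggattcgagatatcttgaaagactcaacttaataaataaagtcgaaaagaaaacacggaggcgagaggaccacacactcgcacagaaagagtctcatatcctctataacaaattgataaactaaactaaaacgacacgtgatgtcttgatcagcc
LTI30: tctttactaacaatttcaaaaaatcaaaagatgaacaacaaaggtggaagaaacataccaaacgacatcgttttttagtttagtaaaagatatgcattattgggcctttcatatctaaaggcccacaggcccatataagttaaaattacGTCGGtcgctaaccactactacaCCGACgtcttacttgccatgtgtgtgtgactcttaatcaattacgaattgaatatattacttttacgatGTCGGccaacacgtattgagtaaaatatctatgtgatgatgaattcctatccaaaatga
RD29A: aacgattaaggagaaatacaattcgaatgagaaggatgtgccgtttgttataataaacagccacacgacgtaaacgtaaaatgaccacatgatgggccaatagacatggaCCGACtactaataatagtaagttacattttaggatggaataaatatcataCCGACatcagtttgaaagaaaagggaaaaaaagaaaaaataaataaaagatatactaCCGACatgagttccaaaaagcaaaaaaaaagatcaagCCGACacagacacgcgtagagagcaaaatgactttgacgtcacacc
The window of RD29A held 4 matches and that of LTI30 3 matches, and those of KIN1 and KIN2 held 0. At least 1 match was found for 7 of the 16 targets (43.8%), for 3162 of 19737 genes of the comparison with a promoter (16%) and for 4145 of 27561 protein-coding genes (15%). Of the genes called with a separate block term at 24 h, 3 of 12 lower ones (25.0%) and 4 of 17 higher ones (23.5%) held a match, where a promoter was available. The lower ones are not separate from the target list, since they include KIN1, KIN2, COR15B, LTI30 and RD29A. RD29A and LTI30 are counted with a match in both. A match is only these 5 letters on either strand of a 300-base window, and its absence says nothing about sites outside it.

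In the cold libraries the same 16 genes gave other values. The median difference over the list was -0.27 before cold, -1.11 at 3 h and -2.59 at 24 h. KIN1 had 246 and 222 normalized reads in cbfs-1 at 3 h, against 903 and 804 in wild type, and 1055 and 988 at 24 h, against 8898 and 7230. KIN2 had 1404 and 1379 in cbfs-1 at 3 h, against 5886 and 5046 in wild type, and 9369 and 9594 at 24 h, against 69314 and 58559. Both genes were called lower at all 3 times. The change in the genotype difference relative to 0 h was called for KIN2 at 24 h (-1.53, limma adjusted p = 0.0320), and not for KIN1 at 24 h (-1.39, limma adjusted p = 0.113) or for either gene at 3 h.

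**Figure D2:**
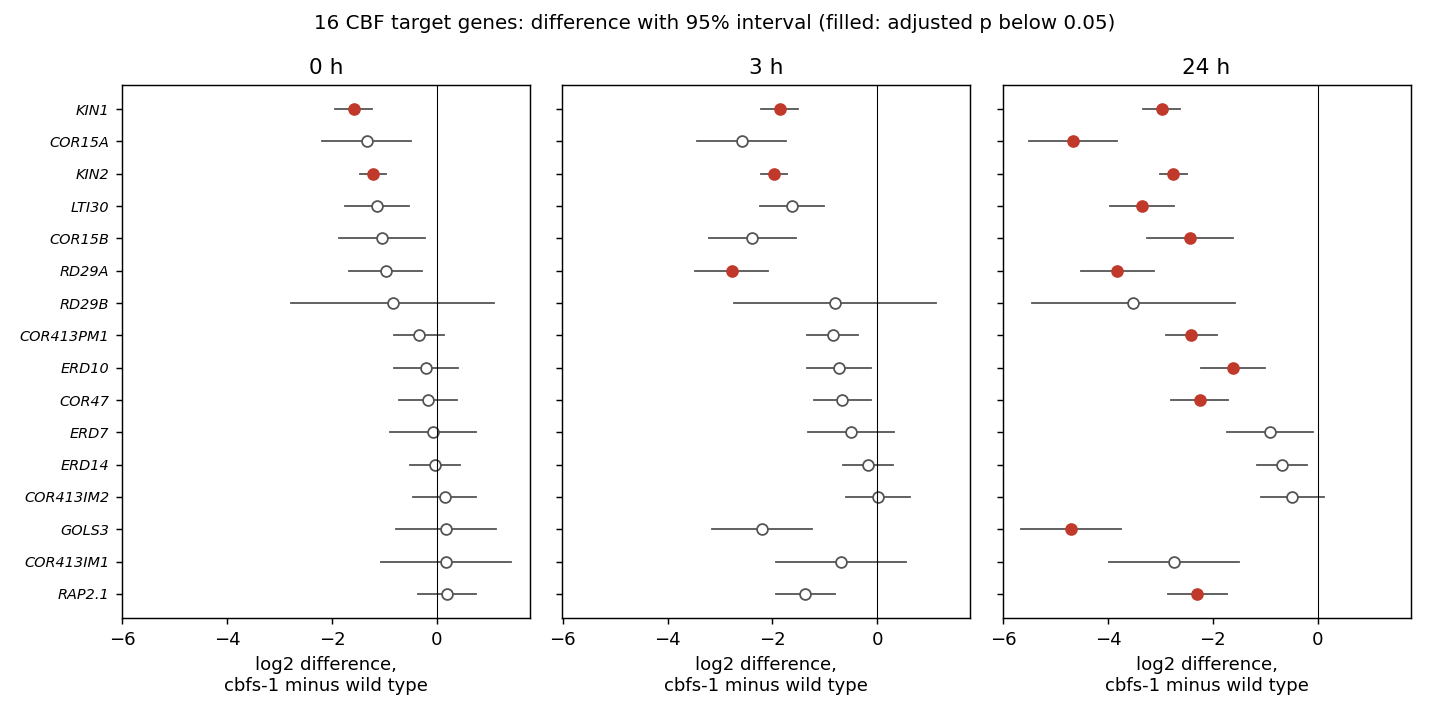
The 16 CBF target genes before cold and at 3 h and 24 h at 4 °C. The x axis of each panel gives the log2 difference, cbfs-1 minus wild type, points are estimates from 2 libraries per group, lines are 95% intervals, and filled red points passed the adjusted p threshold. Before cold only KIN1 at -1.59 and KIN2 at -1.22 are filled.

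The other 5 called genes are not in any list of the cold pathway used here. ARP9, which encodes an actin-related protein, had 258 and 205 normalized reads in cbfs-1, against 647 and 660 in wild type. The groups did not overlap, and ARP9 fell by 1.50 (SE 0.14), a 2.83-fold higher level in wild type (limma adjusted p = 0.00785). Its measured neighbours RPP8, AT5G43460 and AT5G43520 differed by -0.07, 0.05 and 0.39.

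SADHU5-1, annotated as a member of the Sadhu family of non-coding retrotransposons, had 156 and 168 normalized reads in cbfs-1, against 68.8 and 57.5 in wild type. It was 2.55-fold higher in cbfs-1, a difference of 1.35 (SE 0.15, limma adjusted p = 0.0189). AT3G41979, annotated as ribosomal RNA, had 178 and 222 in cbfs-1, against 44.8 and 57.5 in wild type, a difference of 1.95 (SE 0.22, limma adjusted p = 0.0189). In both loci every cbfs-1 value exceeded every wild type value. The nearby ribosomal RNA locus AT3G41768 differed by -0.01. Ribosomal RNA genes and retroelements have near-identical copies, AT3G41979 overlaps AT3G06355, and the sources used here do not state how reads that map to several places were counted.

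MRD1 and AT1G67626 were low in wild type and at or near 0 in cbfs-1. They were below the mean of 50 set for naming genes and were chosen after their values were seen. Both entered the comparison only through their wild type libraries. For a gene that enters in this way the rule allows only a lower level in cbfs-1, so their direction is not a separate result. MRD1, named for lower expression in a methionine over-accumulating mutant, had 0 and 0 reads in cbfs-1, against 22 and 16 reads in wild type. Taking 3 reads per library as the floor it was at least 6.96-fold lower in cbfs-1 (limma adjusted p = 0.0118). AT1G67626, annotated as a pseudogene, had 0 and 1 reads in cbfs-1, against 26 and 24 in wild type, a wild type to cbfs-1 ratio of 55.1 with an exact 95% counting interval of 9.44 to 2218 (limma adjusted p = 0.00785). That interval covers counting error only.

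HEI10, a gene for a RING protein of meiotic crossover formation that overlaps MRD1, was chosen after its values were seen. It had 42.4 and 34.1 normalized reads in cbfs-1, against 90.6 and 80.3 in wild type. Its groups did not overlap, but the difference of -1.15 (SE 0.20) did not pass (limma adjusted p = 0.266). Without knowing the strandedness, reads from the overlapping stretch cannot be assigned to one of these loci. The call for MRD1 was lost with edgeR (adjusted p = 0.210) and that for AT1G67626 with DESeq2 (adjusted p = 0.102), and AT5G35935, a locus annotated as a pseudogene with 244 and 253 normalized reads in cbfs-1 against 86.3 and 66.2 in wild type, was called with edgeR (adjusted p = 0.0293) and missed with limma (adjusted p = 0.0949).

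The 8 genes were then followed in the libraries taken in the cold. The levels there come from other libraries, but the calls are not independent of those at 0 h, since all use the spread pooled over the 12 libraries and same-numbered libraries of 0 h and 3 h deviated together. With the 4 libraries of each time fitted alone, limma called 0 genes at 0 h, so that 0 could be called alike later. At 3 h 7 of the 8 genes had the sign seen before cold and 4 were called in the same direction, MRD1, KIN1, KIN2 and ARP9. At 24 h all 8 had the same sign and 7 were called in the same direction, CBF3 being the exception. The share of all 20126 genes called was 0.0248% at 3 h and 0.82% at 24 h.

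ARP9 had 267 and 207 normalized reads in cbfs-1 at 3 h, against 619 and 593 in wild type, and 169 and 186 at 24 h, against 599 and 615. MRD1 had 0 and 0 in cbfs-1 at 3 h, against 24.1 and 18.8 in wild type, and 0 and 0.906 at 24 h, against 28.6 and 46.8. SADHU5-1 had 151 and 140 in cbfs-1 at 3 h, against 90.8 and 70.4 in wild type, and 202 and 206 at 24 h, against 79.3 and 76.0. The groups of these 3 genes did not overlap at any time. AT3G41979 had 196 and 201 in cbfs-1 at 3 h, against 108 and 67.9 in wild type, and 139 and 155 at 24 h, against 46.5 and 42.9, again without overlap. AT1G67626 had 6.89 and 6.60 in cbfs-1 at 3 h, against 17.5 and 16.4 in wild type, and 4.31 and 1.81 at 24 h, against 29.6 and 28.3.

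**Figure D3:**
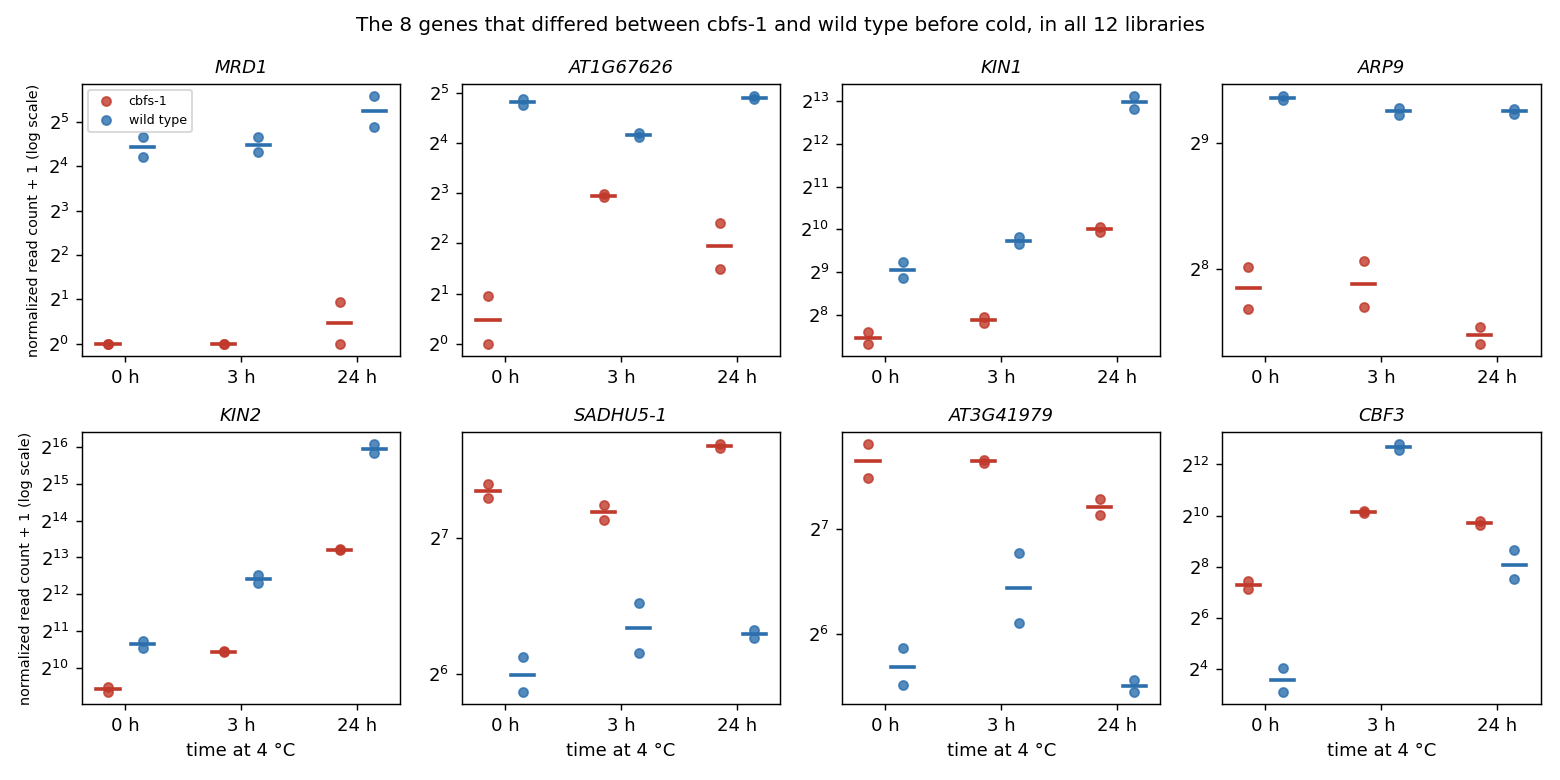
Normalized read counts of the 8 called genes in all 12 libraries. The x axis gives the time at 4 °C, the y axis the normalized read count + 1 on a log scale that differs between panels, points are libraries (red for cbfs-1, blue for wild type, 2 each) and bars are group means on the log scale. In the panels of KIN1, KIN2, ARP9, MRD1, SADHU5-1, AT3G41979 and AT1G67626 the genotypes stay apart at each time. In the panel of CBF3 wild type passes cbfs-1 at 3 h.

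Genes at least 2-fold apart before cold, whether or not they passed, were followed in the same way. Of the 75 genes (0.373%) at least 2-fold higher in cbfs-1 before cold, 65 (86.7%) were also above 0 at 3 h and 63 (84.0%) at 24 h. Of the 45 genes (0.224%) at least 2-fold lower, 37 (82.2%) were below 0 at 3 h and 37 (82.2%) at 24 h. Over all genes of the comparison the sign was shared by 60.4% at 3 h and 57.9% at 24 h. Most of those genes differed far less before cold (5th and 95th percentiles -0.28 and 0.35), so their share is not a baseline for differences of like size.

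Some of the genes called only with the replicate block are given here, chosen after their values were seen. In brackets is their limma adjusted p without and with a separate block term at 24 h. G6PD3, a glucose-6-phosphate dehydrogenase gene, had 284 and 168 normalized reads in cbfs-1, against 596 and 408 in wild type (0.844 and 0.00215). CWINV5, a cell wall invertase gene, had 89.0 and 77.6 in cbfs-1, against 157 and 140 in wild type (0.198 and 0.0145). In both genes the values stood lower in cbfs-1 within each replicate number and across numbers. AT3G29120, annotated as a pseudogene, had 2.07 and 3.79 in cbfs-1, against 26.2 and 36.9 in wild type (0.246 and 0.0332). It entered the comparison only through its wild type libraries, so its direction was set by the rule.

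On the higher side AZI1, which encodes a lipid-transfer-like protein of systemic immunity, had 3329 and 2262 normalized reads in cbfs-1, against 2032 and 1272 in wild type (1.00 and 0.00742). AT4G22470, a gene of the same protein class, had 514 and 293 in cbfs-1, against 200 and 77.0 in wild type (1.00 and 0.00496). The related loci AT4G22485 and AT4G22505, close to it on chromosome 4, went the other way. AT4G22485 had 3830 and 4335 in cbfs-1, against 5976 and 5995 in wild type (0.117 and 0.00590). AT4G22505 had 3029 and 3654 in cbfs-1, against 4812 and 4990 in wild type (0.489 and 0.0111). Such tandem copies may share reads. BAM5, a beta-amylase gene, had 738 and 185 in cbfs-1, against 217 and 54.3 in wild type (1.00 and 0.0190). Its groups overlap, since replicate 1 was about as far above replicate 2 in both genotypes as cbfs-1 was above wild type.

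The CBF family and the CBF targets were the lists with called genes. The other 24 lists held 278 different measured genes, of which 0 were called with limma, edgeR or DESeq2 and 11 had an unadjusted p below 0.05. Genes of phosphate nutrition were among those called only with the separate block term. The list of nitrate and phosphate genes had 10 measured members, none of which passed without a block. All 10 differences were above 0, the median was 0.28, and both cbfs-1 libraries lay above both wild type libraries for 6 of the 10, against 13.7% of all genes. PHT1;4, a phosphate transporter gene, had 1203 and 1019 normalized reads in cbfs-1, against 823 and 712 in wild type. PS2, a phosphate-starvation-induced phosphatase gene, had 898 and 617 in cbfs-1, against 476 and 239 in wild type. Neither overlapped between groups, with differences of 0.53 (interval 0.24 to 0.83) and 1.14 (interval 0.42 to 1.86), and both passed with the separate block term (limma adjusted p = 0.00742 and 0.0122). PAP17, a purple acid phosphatase gene outside the list that was chosen after its values were seen, had 1255 and 1023 in cbfs-1, against 786 and 685 in wild type, and passed likewise (limma adjusted p = 0.0145). The nitrate reductase genes NIA1 and NIA2, chosen after their values were seen, differed by 0.08 and 0.21.

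The abscisic acid list had 16 measured members, and 0 were called (also 0 at an unadjusted p below 0.05). Of the differences 14 were below 0, the median was -0.20, and the cbfs-1 libraries lay below both wild type libraries for 9 of the 16, against 13.5% of all genes. NCED3, the gene of a key step in abscisic acid synthesis, had 136 and 133 normalized reads in cbfs-1, against 225 and 168 in wild type, a difference of -0.53 with an interval of -1.23 to 0.16. HAI2, a protein phosphatase gene induced by the hormone, had 34.1 and 23.7 in cbfs-1, against 43.7 and 41.2 in wild type, a difference of -0.56 with an interval of -1.60 to 0.48. RAB18, a dehydrin gene of this response chosen after its values were seen, varied more between replicates than between genotypes, with 400 and 146 in cbfs-1, against 732 and 183 in wild type.

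In the iron list 0 of 13 genes passed and the median was -0.35. The root iron uptake genes IRT1, a transporter, and FRO2, a ferric reductase, were the members with the lowest p. IRT1 had 611 and 339 normalized reads in cbfs-1, against 1046 and 767 in wild type, and FRO2 had 416 and 250 in cbfs-1, against 701 and 458 in wild type. Neither overlapped, with differences of -0.98 (interval -1.77 to -0.18) and -0.81 (interval -1.51 to -0.11). At 3 h in the cold their differences were 0.06 and 0.21. The iron-deficiency marker BTS, also chosen after its values were seen, followed the replicate number, with 1410 and 2831 in cbfs-1, against 1333 and 4394 in wild type.

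Regulators of the CBF genes gave no call. None of 17 measured genes of that list passed, the median was -0.04, and the 95% interval stayed within 2-fold for all 17. BZR1, a brassinosteroid-regulated transcription factor gene, had 439 and 482 normalized reads in cbfs-1, against 488 and 529 in wild type. CAMTA1, for a calmodulin-binding transcription activator, had 976 and 803 in cbfs-1, against 1004 and 954 in wild type. Their differences were -0.15 and -0.14. None of 14 early cold transcription factor genes passed (median 0.22), and 12 of the 14 differences were above 0. The groups overlapped for all 14, whereas 13.7% of all genes were higher and 13.5% lower without overlap. MYB44 and WRKY40, the members with the lowest p, differed by 0.34 and 0.72 with intervals that include 0. MYB44 had 1499 and 977 in cbfs-1, against 1159 and 791 in wild type. WRKY40 had 181 and 63.4 in cbfs-1, against 123 and 33.6 in wild type. Both were higher in cbfs-1 within each replicate number, while RVE2 was higher in replicate 1 and lower in replicate 2. Overlap across numbers therefore does not show that the genotypes were alike.

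The circadian clock list had 18 measured genes, 0 called, with a median of -0.08. ELF3 and PRR9, the members with the lowest p, differed by -0.17 and -0.22 with overlapping groups. LHY and CCA1 were chosen after their values were seen. The morning gene LHY had 1639 and 7514 normalized reads in cbfs-1, against 1592 and 7923 in wild type, and CCA1 had 2154 and 4703 in cbfs-1, against 2239 and 5421 in wild type. Replicate 2 was higher than replicate 1 for both genes in both genotypes, while within each number the genotypes lay closer together. The differences of -0.02 for LHY and -0.13 for CCA1 have wide intervals, -2.54 to 2.51 for LHY, since the test compares them with the spread between replicates. The groups did not overlap for 1 of the 18, which was lower in cbfs-1, against 13.5% of all genes lower and 13.7% higher without overlap.

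Defence and hormone lists likewise held no called gene. The members with the lowest p in the jasmonate list of 13 (median -0.01) were VSP1, a vegetative storage protein gene, and JAZ5, a repressor gene of the pathway. VSP1 had 80.7 and 144 normalized reads in cbfs-1, against 226 and 218 in wild type, without overlap and with a difference of -1.04 (interval -1.68 to -0.40). In the salicylate and defence list of 16 (median 0.01) CBP60G and FMO1 differed by 0.30 and 0.42 with overlapping groups. CBP60G encodes a regulator of salicylate immunity and FMO1 an enzyme of pipecolate-derived immunity. In the gibberellin list of 17 (median 0.06) GA2OX1, for an enzyme that inactivates the hormone, had 22.8 and 25.6 in cbfs-1, against 29.5 and 39.1 in wild type, and GA3OX2, of gibberellin synthesis, differed by -0.71 without overlap. In the elongation growth list of 11 (median -0.04) XTH22, a cell wall enzyme gene, had 671 and 476 in cbfs-1, against 442 and 344 in wild type, and SAUR19 differed by 0.67 with overlapping groups.

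The metabolic lists held no called gene. The sugar, starch and osmolyte list of 15 had a median of -0.06, with P5CS1, of proline synthesis, at -0.34 and TPS5 at -0.09. The sugar starvation and senescence list of 9 had a median of 0.30, 8 differences above 0 and 3 genes with both cbfs-1 libraries above both wild type libraries, against 13.7% of all genes. Of these BCAT2, a branched-chain amino acid aminotransferase gene, had 91.0 and 73.8 normalized reads in cbfs-1, against 60.1 and 47.7 in wild type, and DIN10 had 2600 and 2237 in cbfs-1, against 2064 and 1867 in wild type. Their differences were 0.61 and 0.30. The flavonoid list of 14 had a median of -0.06, with the regulators MYB111 and TT8 at -0.27 and -0.41, each without overlap. The glucosinolate list of 12 had a median of -0.02, with CYP79F2 and BCAT4, of aliphatic glucosinolate synthesis, at 0.20 and 0.15. The low sulfur list of 13 had a median of 0.16 and 11 differences above 0, with the sulfate transporter gene SULTR1;1 at 1.09 (interval -0.20 to 2.39) and GGCT2;1, of glutathione turnover, at 0.51.

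Stress and flowering lists gave 0 calls as well. The heat shock list of 7 had a median of 0.05, with HSFA7A at 0.11 and HSP70 at -0.17. In the light and oxidative stress list of 10 (median 0.09) FSD1 and CSD1, for iron and copper/zinc superoxide dismutases, had opposite signs. FSD1 had 25715 and 26082 normalized reads in cbfs-1, against 21548 and 20599 in wild type, and CSD1 had 593 and 588 in cbfs-1, against 666 and 692 in wild type. Neither gene overlapped between groups, with differences of 0.30 and -0.20. In the touch and calcium list of 5 (median 0.16) TCH3, a calmodulin-like protein gene, had 1678 and 962 in cbfs-1, against 1180 and 627 in wild type, and passed only with the separate block term (limma adjusted p = 0.0256), while CML38 differed by 0.58. In the flowering time list of 9 (median -0.08) FUL and FLC, an activator and the main repressor of flowering, differed by 0.30 and -0.20.

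**Figure D4:**
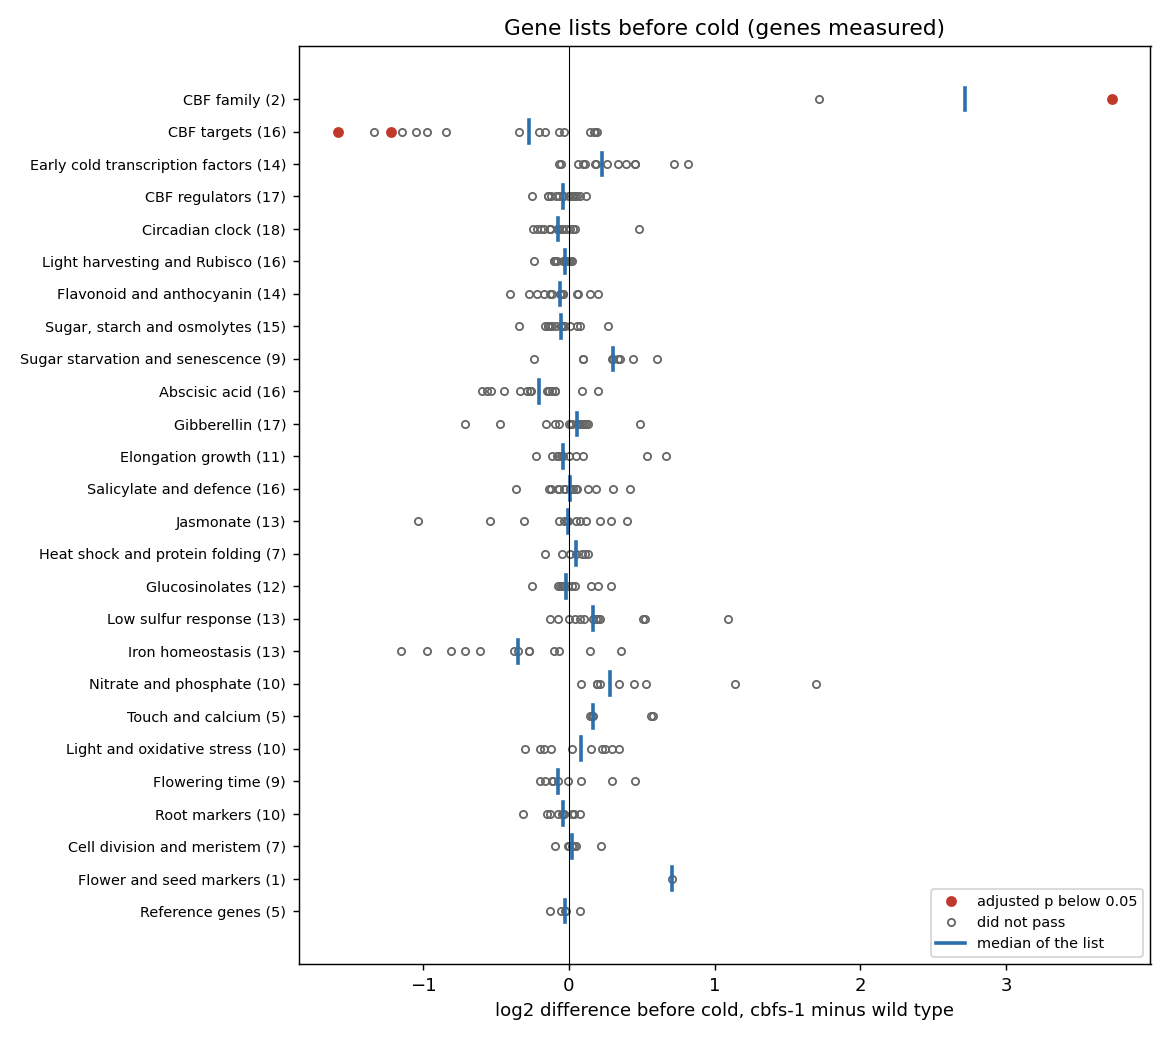
Genes of the 26 lists before cold. Each row is a list with its number of measured genes, each circle 1 gene, the x axis the log2 difference, cbfs-1 minus wild type, at 0 h, and the blue line the median of the list. The 3 filled red circles, CBF3 at 3.72, KIN1 at -1.59 and KIN2 at -1.22, passed, and open circles did not.

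Markers of plant parts were looked at for the tissue label, seedling. The summed normalized reads of the 16 light harvesting and Rubisco genes were 1446600 and 1232100 in cbfs-1, against 1501800 and 1274700 in wild type, and RBCS2B and PSBS differed by -0.24 and -0.10. The 10 root markers summed to 4976 and 5262 in cbfs-1, against 4920 and 5565 in wild type, with TIP2;3, a root tonoplast channel gene, at -0.31 and EXPA7, a root hair expansin gene, at -0.15. The 7 measured cell division genes had a median of 0.02, with CYCB1;1 at 0.22 and CDKB1;1 at -0.10. Of 9 flower and seed markers in the table only SEP3 was measured, with 210 and 123 in cbfs-1, against 147 and 65.1 in wild type. None of these genes was called, their part in the called differences was not tested, and in such bulk samples fewer cells of a type and less RNA per cell cannot be told apart. The 5 reference genes had a median of -0.03, with UBC21 at -0.13 and GAPC2 at 0.08.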

How the data were processed

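RNA was sequenced from cbfs-1 and wild type seedlings in 12 libraries, 2 per group, with groups and replicate numbers taken from the sample titles. The values in the deposited table have the unit signal: per its name and values, the authors divided each library's read counts per gene by a size factor from DESeq2. Of tools, the submitters' processing notes list HTSeq 0.6.0, TopHat2 2.1.0, Cufflinks 2.2.1 and, with no version, DESeq2, and of builds TAIR10. What each tool did, its settings and the strandedness stay unstated in the sources used here. All values (100% in each column, tolerance 0.001 of a read) were whole multiples of 1 step, so reads were recovered by division.

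The test was limma 3.58.1 (R 4.3.3) with a trend on log2(value + 1), for the 20666 genes with at least 10 in at least 2 libraries, in a model of 6 group means over 12 libraries with 6 residual degrees of freedom and no replicate term. p-values were Benjamini-Hochberg adjusted over these genes. On the recovered reads edgeR 4.0.16 called 4 genes higher and 4 lower, and DESeq2 1.42.0 called 8 higher and 8 lower. The method was tested on simulated data that had no replicate effect, so that test does not cover the shift between replicate numbers. Tables were prepared with Python 3.11.15, numpy 2.4.6, pandas 2.3.3 and scipy 1.17.1.

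For each pair of groups the deviations from the group means were compared between libraries of the same number. Across genes these correlated at 0.334 to 0.565 for the 6 pairs among the 0 h and 3 h groups (0.486 for the 2 groups compared) and at 0.0428 to 0.242 where a 24 h group was involved. The labels do not say what a number marks, so the pairing is taken from the data, not from the design. Another 16 settings were tried, and 3 more were chosen after seeing the data, among them the separate block term at 24 h.

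Genes were named by rule: CBF1, CBF2 and CBF3, the 15 largest called rises and falls with a mean of at least 50 and groups that do not overlap, up to 4 called genes per list and, in a list with none, up to 2 with the lowest p. All CBF targets are also given. Any other gene was picked with its values known, including HEI10, AT5G35935 and the neighbours of called genes. The genes, the 26 lists and the tests were chosen with earlier results of these data known. Of 335 planned list genes 329 were paired with the annotation and 328 were also in the table. Names and promoters were taken from RefSeq (TAIR10.1), which named 24385 of the 24616 loci, and no coordinates are printed because the build names differ.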

Additional observations from a re-analysis of the deposited data

Results flagged for a closer look

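The difference between cbfs-1 and wild type changed with cold in 2 of the named genes, by a test of the change itself (limma adjusted p below 0.05 over all genes). For CBF3 the genotype difference at 3 h differed from that before cold by -6.28 on the log2 scale (SE 0.51, limma adjusted p = 0.00788), since both cbfs-1 libraries were above both wild type libraries at 0 h and below them at 3 h. For KIN2 the genotype difference at 24 h differed from that before cold by -1.53 (SE 0.16, limma adjusted p = 0.0320), and cbfs-1 was below wild type at both times. The cause of neither change was tested.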

How the results depend on the processing

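Of the 8 genes called before cold (3 higher and 5 lower in cbfs-1, 4 called alike at 3 h and 7 at 24 h), all 8 were shared with the calls under the replicate block, TMM scaling, scaling by total reads, a pseudocount of 0.5 and no filter, and 7 with those of edgeR, DESeq2 and a pseudocount of 10. A mean of at least 50 left 3 lower, since MRD1 and AT1G67626 drop out. With only the 4 libraries of each time the counts were 0 higher, 0 lower, 0 at 3 h and 0 at 24 h, and without the 24 h libraries 0, 0 and 0. Leaving out 1 library at 0 h gave 0 to 1 higher, 0 to 0 lower, 0 to 0 at 3 h and 0 to 0 at 24 h. limma without a trend gave 5 higher. DESeq2 gave 8 higher, 8 lower and 9 called alike at 3 h. The replicate block gave 5 higher and 8 lower, edgeR with that block 5 higher, the separate block term at 24 h 20 higher, 15 lower, 22 alike at 3 h and 28 at 24 h, and the block without the 24 h libraries 17, 13 and 15. The change of the genotype difference in the cold was called for 2 named genes, 14 with the replicate block and 13 with DESeq2. Where an alternative drops libraries or genes, that lies in its construction. The cause of the other shifts was not tested.

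Uncalled differences changed sign in 14 genes when 1 library was left out. They ranged from -0.39 to 0.22 for CBF1, -0.0062 to 0.61 for CBP60G, -0.26 to 0.068 for CDKB1;1, -0.23 to 1.38 for CML38, -0.46 to 0.82 for COR413IM1, -0.15 to 0.44 for COR413IM2, -0.36 to 0.0062 for ELF3, -0.082 to 0.013 for ERD14, -0.16 to 0.025 for ERD7, -0.17 to 0.51 for GOLS3, -0.12 to 0.34 for HSFA7A, -0.75 to 0.42 for HSP70, -1.78 to 0.093 for RD29B and -0.20 to 1.64 for WRKY40. Other scalings moved the median of the 20666 genes tested by little, to 0.0025 with TMM and 0.012 with total reads, against -0.0032. Depth limits MRD1, AT1G67626 and CBF1, which had at most 3 reads per library in cbfs-1 at 0 h. It also limits AT3G29120, whose value in cbfs-1 replicate 1 lay under the floor.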

Other observations

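The 35 genes called with the separate block term at 24 h lay on chromosome 1 (8 genes), 2 (4), 3 (5), 4 (11) and 5 (6) and in the chloroplast (1), beside 5292, 3015, 3966, 3078, 4700 and 66 genes of the comparison there. Those on chromosome 4 include CBF3 and ABCB28, and also AT4G22470, AT4G22485 and AT4G22505.

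Of the 20 genes called higher with that term, 4 more are given here, chosen after their values were seen. Prx37, a peroxidase gene, had 601 and 586 normalized reads in cbfs-1, against 381 and 319 in wild type, and AT4G37520, another peroxidase gene, had 1980 and 2279 in cbfs-1, against 1352 and 1663 in wild type. XTH24, for a xyloglucan endotransglucosylase, had 1514 and 1235 in cbfs-1, against 1055 and 907 in wild type. AT1G58848, a disease resistance gene of a class with similar copies, had 210 and 235 in cbfs-1, against 115 and 138 in wild type. In each of these 4 genes both cbfs-1 values exceeded both wild type values.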
